A study of Homo sapiens with 3 samples.

Results

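The genes described here encode the m6A methyltransferase complex and a pair of related enzymes that methylate adenosine in RNA on their own. N6-methyladenosine (m6A) is a methyl mark on adenosines inside mRNA. It is written in the nucleus by a heterodimer of METTL3, which carries the active site, and METTL14, which helps to hold the RNA. WTAP, VIRMA, ZC3H13, CBLL1, RBM15 and RBM15B bind this core and bring it to nuclear speckles and to its target mRNAs. METTL16 and PCIF1 act apart from the complex: METTL16 methylates U6 snRNA and hairpins in the MAT2A mRNA, and PCIF1 methylates the adenosine beside the mRNA cap.

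The 10 genes were taken by name from the deposited gene tables, on the primary chromosomes, and all 10 were found once each among 39320 gene rows. METTL3 is the gene the study is about, so the other 9 are the main subject and METTL3 serves as their reference. RNA was measured in 3 libraries, replicates 1 to 3, of HepG2, a human cell line established from a liver cancer, labelled wild type and without treatment. The labels do not say whether the replicates were separate cultures, so the spread between them may be technical. With 1 condition, the values describe levels and ratios within libraries, and no comparison between conditions was possible.

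The values are TPM, which is scaled for transcript length and to 1 total in each library, and FPKM, which is proportional to TPM within a library. The third value is coverage, the mean read depth listed for a gene, which is scaled for length but not for library size. Coverage cannot be an average over the genomic span of a row. METTL16 spans 95853 bp and RBM15B 6624 bp, yet their mean depths were 157 and 132 reads at 27.1 and 22.1 TPM. Read numbers are not given, so no counting error can be stated, and errors are SDs over 3 libraries. In these bulk libraries, fewer cells that express a gene and less of its RNA per cell cannot be told apart. The highest ratio of coverage to FPKM, a relative measure of depth, was 13.3, 12.8 and 11.5 in replicates 1, 2 and 3. Between any pair of libraries at most 7 rows above 0 had identical TPM, and 0 of the 10 genes did. The hepatocyte marker list held 18 secreted proteins. In each of the libraries 16 of them lay under 1 TPM, and 10, including ALB and APOB, were listed at 0 throughout, with a sum over the list of 34.0 to 36.0 TPM. This goes against what is known of HepG2, and the label was not tested further, so all values hold for libraries labelled HepG2. At 10 TPM or more in every library were 3 of 8 epithelial genes, KRT8, KRT18 and CLDN4. That list summed to 4573 to 4831 TPM, most of it from KRT8 and KRT18, with means of 2610 and 2017 TPM. Under 1 TPM throughout were 4 of its genes, including EPCAM. Of 8 mesenchymal genes 3 reached 10 TPM, VIM, CDH2 and ZEB1, and 2 lay under 1 TPM. The sum of that list was 711 to 804 TPM, most of it from VIM, with a mean of 694 TPM. Of 7 blood genes 2 reached 10 TPM, HBA1 and HBA2, with a sum over the list of 75.8 to 80.4 TPM. Under 1 TPM were 4 blood genes, including PTPRC, a defining blood cell gene, listed at 0.

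The methyltransferases among these genes differ at a 4-residue motif in the active site. It reads DPPW in METTL3, EPPL in METTL14 and NPPF in METTL16 and PCIF1, and METTL14 is known to have no catalytic activity of its own. The coding sequence around it is shown to tell these 4 genes apart. The 12 bases of the motif are in capitals between 9 bases on each side, written 5′ to 3′ on the coding strand, from the canonical transcripts of GENCODE v44 (GRCh38).
METTL3: gtgatggctGACCCACCCTGGgatattcac
METTL14: attcttctgGAACCCCCTTTAgaagaatat
METTL16: tgcatgtgcAACCCTCCCTTTtttgccaat
PCIF1: tttgaggccAACCCTCCCTTCtgcgaggag
The METTL3 stretch lies at chr14:21500596-21500625 on the minus strand in exon 6 and covers residues 395 to 398 of 580. That of METTL14 is at chr4:118697243-118697272 on the plus strand in exon 7, with residues 192 to 195 of 456. In METTL16 it is at chr17:2467776-2467805 on the minus strand in exon 5, with residues 184 to 187 of 562. In PCIF1 it is at chr20:45947107-45947136 on the plus strand in exon 15, with residues 553 to 556 of 704. Each motif occurs 1 time in its protein. The deposited tables hold 1 value per gene, so they do not show which share of the transcripts includes these exons.

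All 10 genes reached at least 1 TPM in every library, which 33.8% of all rows did. At 10 TPM in every library there were 9 of the 10 genes, against 20.7% of all rows and 59.2% of the 13753 rows with a mean of at least 1 TPM. METTL14 was the exception. The median over the 10 genes was 24.4 TPM, and that of the 13753 rows was 15.4 TPM. The levels ran from METTL14 at the bottom to WTAP at the top, and the other 8 genes had means of 13.5 to 32.0 TPM.

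**Figure D1:**
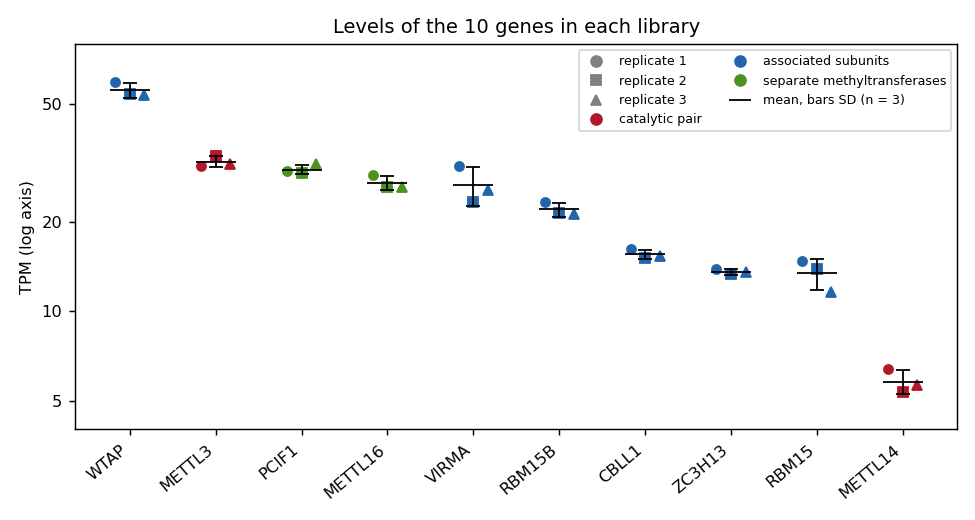
TPM of each gene (log axis) in replicate 1 (circles), 2 (squares) and 3 (triangles), with the mean and SD over 3 libraries in black and colours for the catalytic pair, the associated subunits and the separate methyltransferases. WTAP at 53.7 to 59.6 TPM lies above and METTL14 at 5.34 to 6.41 TPM below all other genes in every library.

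METTL14, the partner of METTL3 in the catalytic heterodimer, was the lowest of the 10 genes. Replicates 1, 2 and 3 gave 6.41, 5.34 and 5.65 TPM, a mean of 5.80 ± 0.554 TPM (SD, n = 3). It exceeded 27.3% of the 13753 rows, whereas METTL3, with 31.1, 33.6 and 31.5 TPM, exceeded 68.7%. The ranges of the 2 genes do not overlap, and METTL14 made up 17.1%, 13.7% and 15.2% of their summed TPM in replicates 1, 2 and 3. The METTL3 value pools all transcripts of the gene, and the paper reports METTL3 variants in HepG2 cells that lack the catalytic domain. The share of METTL3 RNA that encodes the full protein is not shown by these values, so the ratios are of gene levels. METTL3 was 4.85, 6.29 and 5.57 times as high as METTL14 in the same libraries. By coverage the ratio was 6.05 ± 0.402 (SD, n = 3), in the same direction, so METTL14 was the lower gene of the heterodimer in both units. Its mean depth was 29.1 ± 1.86 reads (SD, n = 3), the lowest coverage of the 10 genes as well. The METTL14 row spans chr4:118685375-118715430 on the plus strand (30056 bp), and no other row of the tables overlaps it. The canonical transcript has 11 exons and 6642 nt, of which 1368 nt are coding. The METTL3 row at chr14:21498138-21511340 on the minus strand overlaps that of TOX4 on the plus strand, which had 25.4 ± 0.914 TPM (SD, n = 3), and 345 of the 1980 nt of its canonical transcript lie in TOX4 exons. The part of TOX4 reads in the METTL3 value was not tested.

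WTAP, the adaptor that holds the heterodimer and the other subunits together, was the highest of the 10 genes by TPM. It had 59.6, 54.1 and 53.7 TPM in replicates 1, 2 and 3, a mean of 55.8 ± 3.31 TPM (SD, n = 3), and exceeded 80.4% of the 13753 rows. It took 37.9% ± 0.408 (SD, n = 3) of the summed TPM of the 6 associated subunits. No other gene of the complex came near this level by TPM: its lowest library was above the highest library of each of the other 9. By coverage, WTAP instead had 54.5, 49.1 and 43.6 reads of mean depth and ranked 7th of 10. The row spans chr6:159726696-159756319 on the plus strand (29624 bp) and lies wholly inside the row of SOD2 on the minus strand, a mitochondrial superoxide dismutase with 136, 126 and 124 TPM. In GENCODE v44, the exons of the 2 genes share 437 bp, of which 0 fall in the canonical WTAP transcript of 2105 nt. The strand setting is not stated, and the part of SOD2 reads in the WTAP value was not tested.

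VIRMA, the largest subunit, acts as a scaffold and helps to place m6A near stop codons. Its levels in replicates 1, 2 and 3 were 31.0, 23.3 and 25.7 TPM, a mean of 26.7 ± 3.95 TPM (SD, n = 3), and its coefficient of variation of 14.8% was the largest of the 10. Replicate 1 was the highest. Mean depths were 151, 115 and 110 reads, values that also carry the differences in depth between libraries. The relative measure of depth was 13.3, 12.8 and 11.5 in replicates 1, 2 and 3. The coverage of VIRMA is therefore no separate check of its order by TPM. A wider range between libraries than that of VIRMA was seen in 2.42% of the 8419 rows that averaged 10 TPM or more. VIRMA was picked here as the widest of the 10, a choice that favours a small share. The row spans chr8:94487689-94553518 on the minus strand (65830 bp), no other row overlaps it, and the canonical transcript of 24 exons encodes 1812 residues.

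ZC3H13, a zinc finger protein that keeps the complex in the nucleus, was the most even of the 10 genes. Its levels were 13.9, 13.3 and 13.5 TPM in replicates 1, 2 and 3, a mean of 13.6 ± 0.285 TPM (SD, n = 3) and a coefficient of variation of 2.09%. Its row at chr13:45954465-46052794 on the minus strand is the longest of the 10 at 98330 bp and has no overlapping row. CBLL1, also called HAKAI, is a ubiquitin ligase that stabilises the associated subunits. It had 16.2, 15.1 and 15.4 TPM, a mean of 15.6 ± 0.585 TPM (SD, n = 3), at chr7:107743697-107764997 on the plus strand. An uncharacterised minus-strand gene, LOC101927974, overlaps 885 bp at its start, with 2.55, 2.17 and 0 TPM. CBLL1 was above ZC3H13 in 3 of 3 libraries and their ranges were separate, although the difference was only 0.18 ± 0.02 on the log2(TPM + 1) scale (SD, n = 3). By coverage this order was turned around in 3 of 3 libraries, with 37.8 ± 4.28 reads for CBLL1 and 49.9 ± 3.86 reads for ZC3H13 (SD, n = 3).

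RBM15 and RBM15B are paralogs that bind RNA and the core and can stand in for each other in bringing it to target sites. RBM15B had 23.5, 21.6 and 21.3 TPM, a mean of 22.1 ± 1.20 TPM (SD, n = 3). RBM15 had 14.8, 13.9 and 11.7 TPM, a mean of 13.5 ± 1.63 TPM (SD, n = 3), with replicate 3 the lowest. The ranges are separate, and RBM15 made up 38.7%, 39.1% and 35.4% of the summed TPM of the 2 paralogs in replicates 1, 2 and 3. By coverage the share of RBM15 was 22.5% ± 0.554 (SD, n = 3), so RBM15B was the higher paralog in both units and the size of the gap depended on the unit. RBM15B is a single-exon gene of 6624 nt at chr3:51391285-51397908 on the plus strand, and 1325 bp of it overlap exons of DCAF1, a minus-strand gene with 30.1 ± 0.920 TPM (SD, n = 3). The RBM15 row at chr1:110338929-110373005 on the plus strand reaches past the end of the gene in GENCODE v44, at 110346681, into the row of SLC16A4, which had 1.26 ± 0.303 TPM (SD, n = 3). LOC112268233, on the same strand with 1.92 ± 0.0858 TPM (SD, n = 3), overlaps 241 bp at its start. The part of DCAF1, SLC16A4 and LOC112268233 reads in these values was not tested.

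METTL16 and PCIF1, which work without the complex, were below METTL3 by TPM in 3 of 3 libraries. The differences of log2(TPM + 1) were 0.23 ± 0.12 and 0.08 ± 0.10 (SD, n = 3). VIRMA, a subunit of the complex, was below METTL3 by a similar 0.26 ± 0.25 (SD, n = 3). By coverage PCIF1 was further off, with 91.7 reads against 176 for METTL3. METTL16 had 28.8, 26.3 and 26.4 TPM, a mean of 27.1 ± 1.45 TPM (SD, n = 3), and PCIF1 had 29.8, 29.3 and 31.4 TPM, a mean of 30.2 ± 1.08 TPM (SD, n = 3). PCIF1 was higher in 3 of 3 libraries, and METTL16 made up 47.4% ± 1.73 (SD, n = 3) of their sum. By coverage METTL16 was higher in 3 of 3, with 63.0% ± 2.02 of the sum (SD, n = 3). The METTL16 row spans chr17:2416049-2511901 on the minus strand with no overlapping row, and that of PCIF1 spans chr20:45934674-45948023 on the plus strand, where LOC107985388 on the minus strand, with 1.69 ± 0.295 TPM (SD, n = 3), overlaps 1273 bp. The sum of METTL16 and PCIF1 was 57.3 ± 1.62 TPM, against 37.8 ± 0.943 TPM for METTL3 and METTL14 and 147 ± 10.3 TPM for the 6 associated subunits (SD, n = 3).

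The ratios between subunits were compared within each library by 10 differences of log2(TPM + 1), and tested by exact permutation of their signs, two-sided. Each difference had 1 direction in 3 of 3 libraries, and the exact permutation p was 0.25 for each, also after Benjamini-Hochberg adjustment over the 10 comparisons. This is the smallest p that 3 libraries allow, so the test cannot reach 0.05. Against WTAP, the difference was -1.05 ± 0.13 for VIRMA, -1.30 ± 0.01 for RBM15B, -1.78 ± 0.04 for CBLL1, -1.96 ± 0.06 for ZC3H13, -1.98 ± 0.12 for RBM15 and -3.06 ± 0.05 for METTL14 (SD, n = 3). In plain ratios WTAP had 2.52 ± 0.0154 times the TPM of RBM15B and 9.65 ± 0.436 times that of METTL14 (SD, n = 3). By coverage, WTAP had 1.69 ± 0.0812 times the depth of METTL14, 1.30 ± 0.0259 times that of CBLL1 and 1.28 ± 0.0424 times that of RBM15, whereas RBM15B had 2.69 ± 0.00712 and VIRMA 2.54 ± 0.212 times the depth of WTAP (SD, n = 3). The gap between WTAP and METTL14 was therefore far smaller in coverage than in TPM. Of the 10 differences, that of RBM15B against WTAP varied least between libraries. METTL14 minus METTL3 was -2.28 ± 0.17 (SD, n = 3), a wider spread than that of METTL14 against WTAP. VIRMA exceeded ZC3H13 by 0.91 ± 0.17, RBM15B exceeded RBM15 by 0.68 ± 0.12, and PCIF1 exceeded METTL16 by 0.15 ± 0.10 (SD, n = 3).

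**Figure D2:**
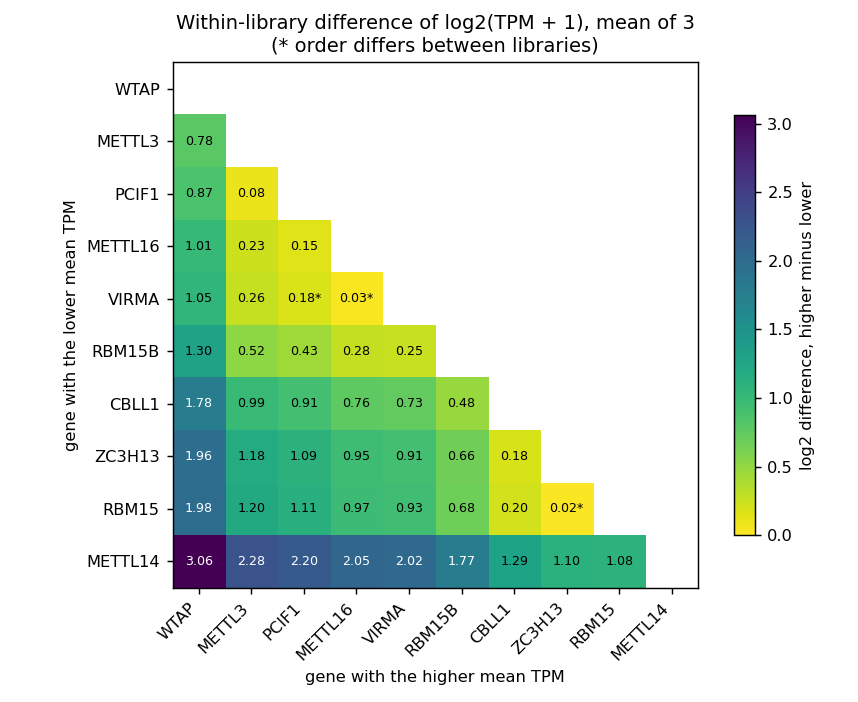
Mean over 3 libraries of the within-library difference of log2(TPM + 1) for each of the 45 pairs of genes, with the higher gene in columns and the lower in rows. A star marks the 3 pairs whose order was not the same in every library. In each column the widest gap is the one to METTL14, and the 3 starred pairs all differ by less than 0.2.

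In order of mean TPM the genes were WTAP, METTL3, PCIF1, METTL16, VIRMA, RBM15B, CBLL1, ZC3H13, RBM15 and METTL14. Of the 45 pairs, 42 had the same order in every library. Among all pairs of the 13753 rows 96% did, so the share in a fixed order is near the background. The 3 pairs without a fixed order were PCIF1 with VIRMA, METTL16 with VIRMA and ZC3H13 with RBM15. The ranges of 5 pairs overlapped: these 3, METTL3 with PCIF1, and VIRMA with RBM15B. On the log2(TPM + 1) scale, VIRMA was 0.03 ± 0.13 below METTL16, RBM15 0.02 ± 0.16 below ZC3H13, PCIF1 0.08 ± 0.10 below METTL3 and VIRMA 0.18 ± 0.20 below PCIF1 (SD, n = 3), mean differences within their SD. VIRMA was above RBM15B in 3 of 3 libraries by 0.25 ± 0.14 (SD, n = 3), a mean beyond its SD although the ranges overlapped.

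The order by coverage differed from the order by TPM. The genes with the highest mean depth were METTL3 with 176 ± 14.6, METTL16 with 157 ± 17.4, RBM15B with 132 ± 15.1 and VIRMA with 125 ± 22.2 reads (SD, n = 3). Because coverage is not scaled for library size, these SDs include differences in depth between libraries. Of the 45 pairs, 31 had the same fixed order by both measures and 8 had opposite fixed orders. The shares over all pairs of rows were not taken for both measures together, so these counts have no background. WTAP was in 5 of these 8, falling below METTL3, PCIF1, METTL16, VIRMA and RBM15B. PCIF1 was in 3, including the one with WTAP, and CBLL1 with ZC3H13 was the remaining pair. Between WTAP and ZC3H13 the coverage order was not fixed: ZC3H13, with 53.2, 50.7 and 45.6 reads, was below WTAP in replicate 1 and above it in replicates 2 and 3.

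**Figure D3:**
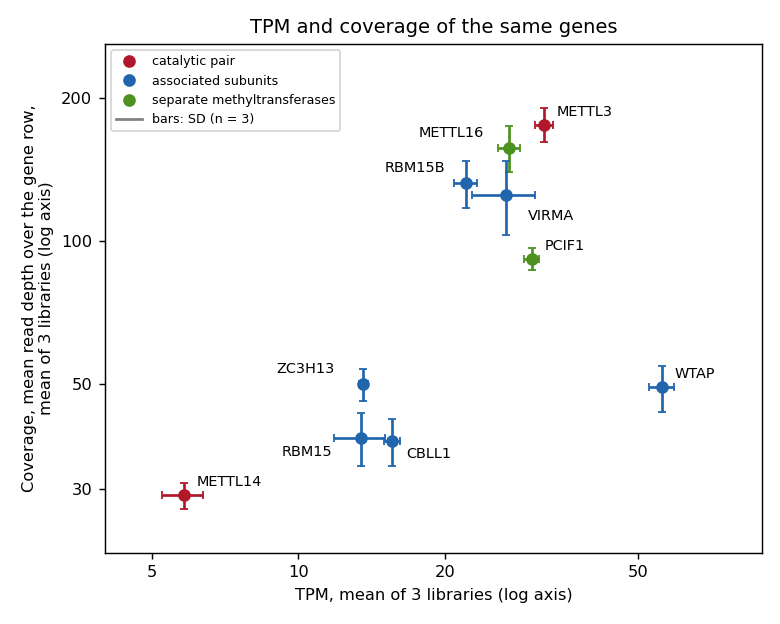
Mean TPM against mean coverage (mean read depth listed for the gene) of the 10 genes, both on log axes, with SD bars over 3 libraries. The coverage bars include differences in depth between libraries. WTAP stands apart to the right, with the highest TPM (55.8) at a coverage of 49.1, while METTL3 has the highest coverage (176) at 32.0 TPM.

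The 2 units were set against each other by the ratio of coverage to FPKM, divided by the highest ratio in that library. RBM15B, with 1 transcript in RefSeq (GRCh38.p14), was at 1.00 in every library. METTL16 followed at 0.968, METTL3 at 0.919, METTL14 at 0.844, VIRMA at 0.785, ZC3H13 at 0.614, PCIF1 at 0.511, RBM15 at 0.480, CBLL1 at 0.405 and WTAP at 0.147, each a mean of 3 libraries. For WTAP the values in the single libraries were 0.146, 0.148 and 0.148, and 7.55% of the 11965 rows above 1 FPKM in every library were lower. WTAP and CBLL1 were below 0.5 in every library. These are 2 of 10 genes, against 28.1% of the 11965 rows, a share near that background, and without replicate 3 the count was 3 of 10. PCIF1 and RBM15 lay on either side of the limit, at 0.495 to 0.536 and at 0.459 to 0.515. RefSeq lists 10 transcripts for WTAP, 9 for CBLL1, 6 for PCIF1, 2 for RBM15, 28 for ZC3H13, 4 for VIRMA, 2 for METTL14, 4 for METTL3 and 5 for METTL16. Of rows with 1 RefSeq transcript 82.3% reached the top ratio, and of rows with more 2.66% did. The transcripts behind each value are not separated in these tables, so their part in the ratio of WTAP was not tested.

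Between libraries, the coefficient of variation had a median of 5.37% over the 10 genes and of 6.12% over the 13753 rows. Over the 8419 rows that averaged 10 TPM or more its median was 4.88%. VIRMA and RBM15 had a range of log2(TPM + 1) above 0.25, at 0.40 and 0.32. These were 2 of 10 genes, near the 19.8% of all tested rows, which include rows of lower level. Among the 8419 rows that averaged 10 TPM or more, 2.42% had a wider range than VIRMA and 4.56% a wider one than RBM15. These 2 genes were picked as the widest of the 10, a choice that favours small shares. The share above 0.25 was not taken for the rows that averaged 10 TPM or more. Replicate 1 held the highest value for 8 of the 10 genes, all but METTL3, which was highest in replicate 2, and PCIF1, which was highest in replicate 3. This count was made after the values were seen, and 58.1% of the tested rows were also highest in replicate 1, the library with the highest coverage per FPKM. The 10 genes summed to 255, 236 and 236 TPM in replicates 1, 2 and 3. With median-of-ratios scaling, whose factor for replicate 1 was 1.03, 6 of the 10 were highest there. The share over all rows was not taken with this scaling.

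**Figure D4:**
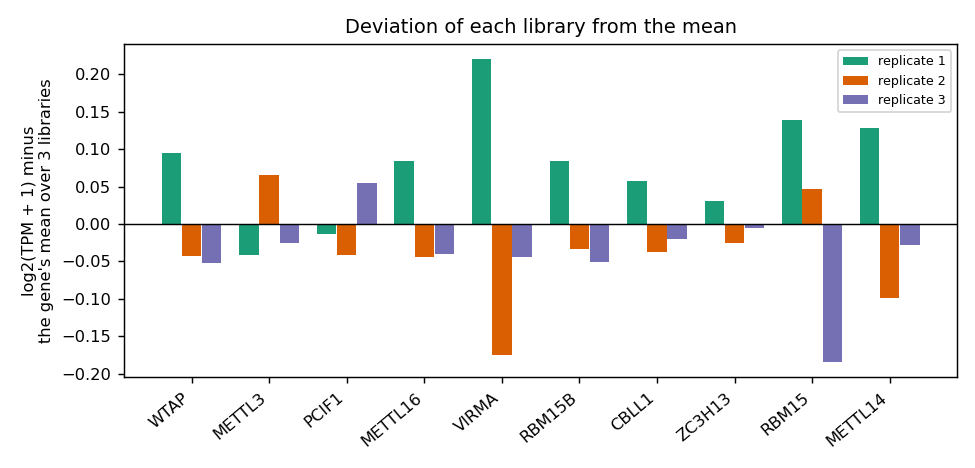
Deviation of log2(TPM + 1) in each library from the gene's mean over 3 libraries, with bars for replicates 1, 2 and 3. Replicate 1 is the highest bar for 8 of 10 genes, and the widest spreads are those of VIRMA (0.40) and RBM15 (0.32).

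Other genes of the m6A pathway were measured beside the writers. Of 23 such genes, 21 reached 1 TPM and 18 reached 10 TPM in each of the 3 libraries. All 10 listed readers, the proteins that bind m6A or RNA near it, were at 10 TPM or more in every library. They ran from IGF2BP2, which stabilises its bound mRNAs, with 14.0 ± 0.347 TPM to HNRNPA2B1, a nuclear RNA-binding protein, with 1094 ± 25.4 TPM (SD, n = 3). The 2 demethylases, which remove the mark, differed widely: ALKBH5 had 55.0, 49.1 and 47.5 TPM, and FTO had 5.84, 6.01 and 5.13 TPM. ALKBH5 was 8.94 ± 0.686 times as high as FTO by TPM (SD, n = 3), and by coverage the gap was far wider, with mean depths of 302 and 0.997 reads. In coverage per FPKM, ALKBH5 stood at the top ratio of each library, and FTO at 0.0295 of it, below WTAP. The TPM of FTO overlapped that of METTL14, at 5.34 to 6.41 TPM, but the mean depth of METTL14 was 29.1 reads.

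MAT2A makes S-adenosylmethionine, the methyl donor of all these enzymes, and its mRNA is a known METTL16 target. It had 223, 211 and 216 TPM, or 7.99 ± 0.233 times the TPM of METTL16 (SD, n = 3). MAT1A, the form of adult liver, was listed at 0 in replicates 1 and 2 and at 0.0151 TPM in replicate 3. AHCY, which clears the S-adenosylhomocysteine left by methylation, had 266 ± 11.4 TPM (SD, n = 3), the highest of the methyl donor list. Among the other m6A methyltransferases, METTL5, which modifies 18S rRNA, had 48.8 ± 1.90 TPM, while METTL4 had 3.97 ± 0.325 TPM (SD, n = 3), the lowest of that list. The highest of it was TRMT112, the partner of METTL5, with 232, 254 and 302 TPM, a gene lowest in replicate 1. SPEN, which shares the SPOC domain with RBM15 and RBM15B, had 33.1 ± 2.33 TPM, or 2.47 ± 0.131 times RBM15 (SD, n = 3). CBLL2, a relative of CBLL1, was at 0 in replicates 1 and 2, with 0.0350 TPM in replicate 3.

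**Figure D5:**
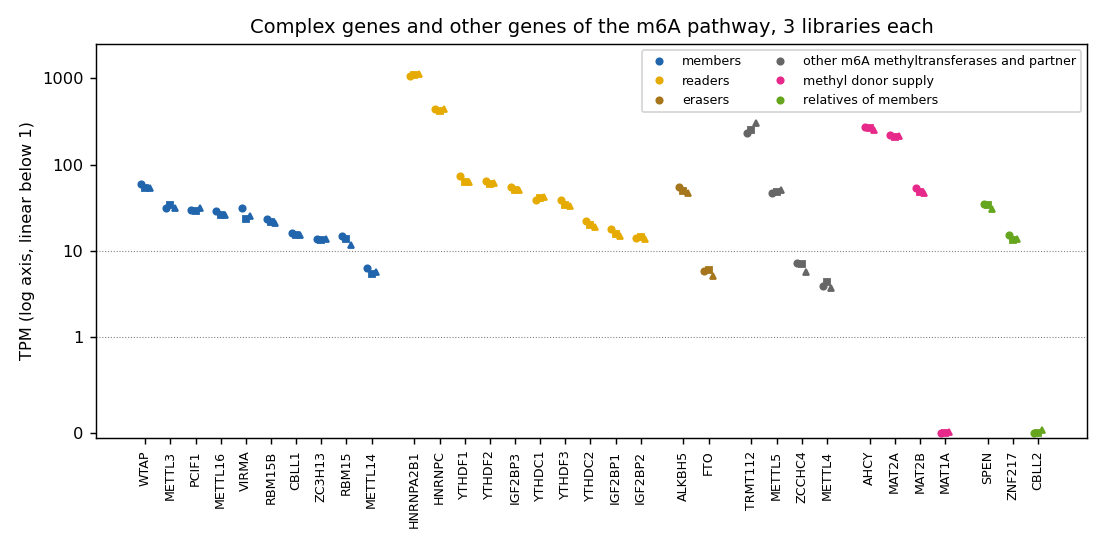
TPM (log axis, linear below 1) of the 10 genes and of 23 other m6A pathway genes by list, with circles, squares and triangles for replicates 1, 2 and 3 and dotted lines at 1 and 10 TPM. METTL14 (5.80 TPM) and FTO (5.66 TPM) overlap in TPM but not in coverage (29.1 and 0.997 reads of mean depth, not plotted), while 7 genes outside the complex exceed the mean of WTAP (55.8 TPM).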

How the data were processed

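RNA-seq tables of 3 libraries labelled wild-type HepG2 were used. Per the submitters' notes and the methods, 150 bp paired-end reads passed FastQC 0.11.8 and Trim Galore 0.6.2 and were mapped to GRCh38 with STAR 2.6.1a. StringTie is named without a role. The annotation and strand setting are not given in the sources used here. The authors deposited coverage (mean depth, not scaled for library size), FPKM and TPM values per gene row, with no counts, so the depth is unknown.

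From these values, rows were joined by gene and coordinates (43389 rows) and those on alternate references were left out. Levels were compared as log2(TPM + 1) within a library, with a pseudocount of 1, exact sign-flip tests and Benjamini-Hochberg adjustment over 10 differences. Percentiles used rows with a mean of at least 1 TPM. The genes named were the 10 members, pathway lists by their highest and lowest genes, overlapping rows at 1 TPM or more, and the nearest row by level. Other genes singled out were chosen after their values were seen. The members and lists were chosen with earlier results of these data known. Motifs came from GENCODE v44, and overlapping exons too. Row positions were compared with GENCODE v44 on GRCh38, where only RBM15B had the same start and end. Every other member differed at its start, its end or both. The METTL16 row, for example, starts at 2416049 and the GENCODE gene at 2405562. The code for range calls was run on simulated data with a spread set well below that of these libraries. That run checks the code and gives no error rate for the calls. Alternatives were other units, scalings, limits and pseudocounts, and each replicate left out. Python 3.11.15, numpy 2.4.6, pandas 2.3.3 and matplotlib 3.10.9 were used.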

Additional observations from a re-analysis of the deposited data

How the results depend on the processing

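No paired analysis was possible between conditions because all libraries are of 1 condition, and the differences between genes were taken within each library. Of the 10 differences between genes, 4 changed the sign of their mean with coverage in place of TPM. VIRMA against WTAP went to 1.32, RBM15B against WTAP to 1.41 and PCIF1 against METTL16 to -0.76. ZC3H13 against WTAP went to 0.0255 ± 0.0532 (SD, n = 3), a mean within its SD, so it has no clear direction by coverage. No difference reversed with FPKM, a pseudocount of 0.1, scaling without mitochondrially encoded genes or a replicate left out. With 3 libraries, none can pass the test under any setting. Genes with a range above 0.25 numbered 2, and 1 with median-of-ratios scaling and 6 by coverage, which is not scaled for library size. They ranged from 0 to 2 with a replicate left out: 0 without replicate 1 and 1 without replicate 3. Genes with a low ratio of coverage to FPKM numbered 2, and 5 below 0.75 and 1 below 0.25, with 2 to 3 when a replicate was left out (3 without replicate 3). Genes highest in replicate 1, with alternatives chosen after seeing the data, numbered 6 to 8. The shares over all rows were taken for the main settings only, so the counts under other settings cannot be set against a background. Scaling without mitochondrially encoded genes raised every level about 1.25 times. The unknown depth limits what the genes listed at 0 can show.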

Other observations

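For each of the 10 genes, the row with the closest levels was found by the Euclidean distance of log2(TPM + 1) over the 3 libraries among 13721 other rows with a mean of at least 1 TPM, leaving out rows that share their gene name with another row. METTL14 was closest to MORC3, with 6.59, 5.32 and 5.56 TPM, at a distance of 0.0397. WTAP was closest to HIF1A, with 59.7, 54.1 and 54.6 TPM, at 0.0229, and VIRMA to EIF2AK2, with 31.5, 24.4 and 25.5 TPM, at 0.0632. RBM15B lay 0.0078 from ERO1A, the smallest distance of the 10. None of the 10 genes was closest to another of them, but each was set against 13721 rows and only 9 members. A closest row outside the 10 therefore says nothing about the complex. METTL14 had 4734 rows closer than RBM15, the nearest of the other 9, and VIRMA had 81 rows closer than METTL16, the fewest of the 10. Such counts were not made for other genes. These distances rest on 3 libraries of 1 condition.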
